A study of Mus musculus with 6 samples.

Results

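Genes of Schwann cells and perivascular nerve, 6 in all, were followed in the transcriptome of the whole mouse aorta: Scn7a, Prx, Mbp, Pmp22, S100b and Sox10. They were taken by symbol from a table of 35275 genes, and each symbol was found in 1 row. The series compared aortas labelled wild-type (3 libraries) with aortas labelled EC-Jag1KO (3 libraries), in which the Notch ligand Jagged1 is missing from mature endothelial cells. The sources used here name no strain, age or Cre driver and do not say whether each library came from 1 animal. The p-values therefore cover the variation among these 6 libraries, part of which may be technical. Each group held male and female libraries, so the libraries of a group were not all repeats of 1 sample. Levels are FPKM, read counts corrected for gene length and for the total counted in each library.

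Postganglionic autonomic and sensory axons run along arteries in the outer coat, wrapped by Schwann cells. Most of these glia form Remak bundles without myelin, and a few wrap larger axons in myelin. The axons' cell bodies lie in ganglia outside the vessel, so a whole-aorta library holds the glial transcripts but few neuronal ones. Sox10 is the transcription factor that sets and keeps Schwann cell identity. Mbp, Pmp22 and Prx encode myelin basic protein, peripheral myelin protein 22 and periaxin, which are structural proteins of peripheral myelin. Scn7a encodes the atypical sodium channel Nax, made by non-myelinating Schwann cells, and S100b encodes a calcium-binding protein used as a glial marker. Several of these genes are also used elsewhere: Pmp22 in many non-neural tissues, Prx in endothelium, S100b in adipocytes and chondrocytes, and Mbp, through alternative transcripts, in blood cells. In whole tissue, fewer cells of a type and less RNA per cell cannot be told apart.

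Scn7a was higher and Prx lower in all 3 EC-Jag1KO libraries than in any wild-type library, by 1.31-fold and to 0.802-fold of the wild-type mean. Neither passed the test across all genes. For the other 4 genes the groups overlapped. Of the 12165 genes averaging 1 FPKM or more, limma's moderated test called 0 (0%) at an adjusted p of 0.05, and 938 (7.71%) were at an unadjusted p under 0.05, 4.25% of the tested genes higher and 3.46% lower in EC-Jag1KO. Groups that did not overlap were found for 1651 of the tested genes (13.6%), 6.84% higher and 6.73% lower. Sox10 was below the filter, and of the 5 genes tested 2 had groups that did not overlap and an unadjusted p under 0.05, 1 in each direction.

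Reads assigned to genes numbered 19889910 to 25914325 per library. Jag1 itself stood at 9.86 to 16.9 FPKM in wild-type and 9.42 to 19.6 FPKM in EC-Jag1KO libraries, a log2 fold change of 0.16 (95% interval -0.50 to 0.81). Smooth muscle also makes Jag1, and reads outside a deleted exon are counted, and this level is no check of the deletion. Replicate 3 of each genotype was female, by Xist and the Y-linked Ddx3y, and the other 4 libraries were male. In wild-type replicate 2 the summed level of 12 adipocyte markers was 594 FPKM, against 1567 to 3580 FPKM in the other 5 libraries.

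In wild-type aorta Pmp22 was the most abundant of the 6, at 94.2 ± 3.0 FPKM (SD, n = 3), above 95.3% of tested genes. Prx followed at 5.08 ± 0.22 FPKM, Scn7a at 4.39 ± 0.15 FPKM, S100b at 3.08 ± 1.16 FPKM, Mbp at 2.83 ± 0.72 FPKM and Sox10 at 0.941 ± 0.184 FPKM. The wild-type ranges of Prx and Scn7a did not overlap, nor did those of Mbp and Sox10, while S100b and Mbp lay within each other's spread. In EC-Jag1KO aorta the order of Prx and Scn7a was turned, with Scn7a at 5.75 ± 0.39 FPKM and Prx at 4.07 ± 0.43 FPKM (n = 3). The wild-type mean of Pmp22 was 18.5 times that of Prx, the next in the order. The share of the Pmp22 signal that comes from Schwann cells was not tested.

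Schwann cell markers were detected at a low level, and not all of them were. Sox10 was covered by 37 to 76 reads per library, and Erbb3, the neuregulin receptor of Schwann cells, stood at 0.450 to 0.591 FPKM in wild-type libraries. In EC-Jag1KO libraries Erbb3 stood at 0.364 to 0.770 FPKM, and the groups overlapped. Gjb1, the connexin of non-compact myelin, had 0 reads in every library.

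**Figure D1:**
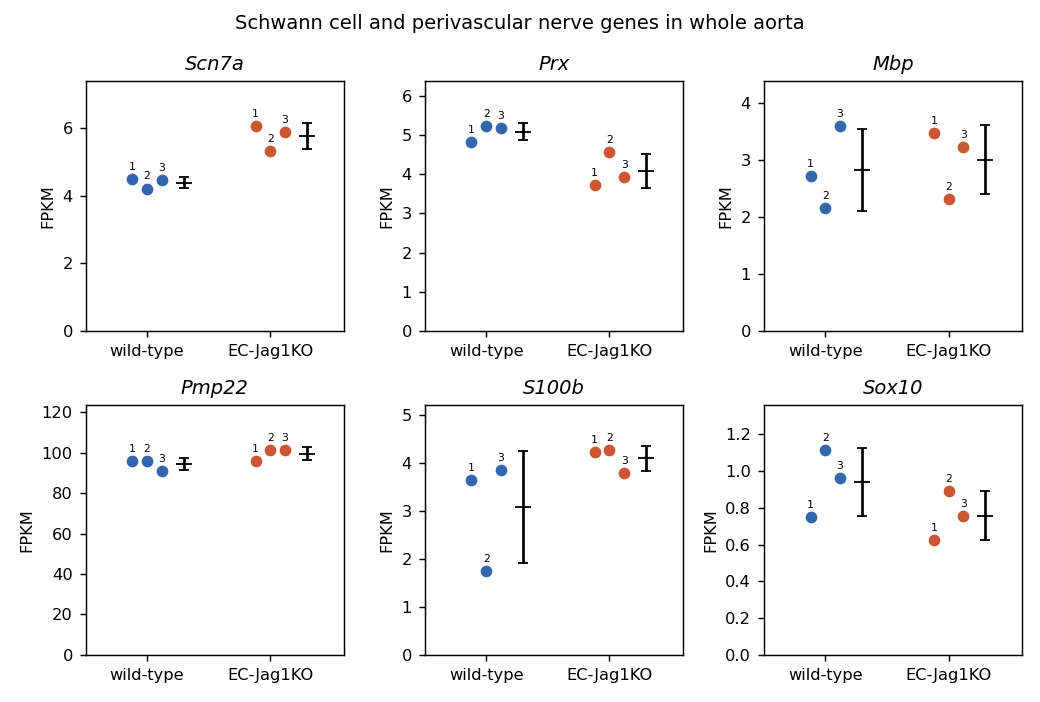
FPKM of the 6 genes in each library, with the replicate number above each point and the mean ± SD (n = 3) as a bar beside each group. Scn7a points of EC-Jag1KO aorta lie above all wild-type points and Prx points below them, while the other panels overlap.

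Scn7a (ENSMUSG00000034810, minus strand of chromosome 2, 66673425 to 66784914 in mm10) measured 4.50, 4.21 and 4.45 FPKM in wild-type libraries. The EC-Jag1KO libraries gave 6.06, 5.32 and 5.89 FPKM. Between 776 and 1120 reads lay behind each of these values. The lowest EC-Jag1KO value was above the highest wild-type value, and the wild-type libraries were tightly grouped, with a coefficient of variation of 3.49%. On the log2(FPKM + 1) scale the difference was 0.32 with an SE of 0.098 and a 95% interval of 0.095 to 0.55. Limma's unadjusted p was 0.0120 and the p adjusted over all genes 0.508. The exact two-sided permutation test gave p = 0.1, the smallest that 3 against 3 allows. Within males (2 against 2) the log2 difference was 0.32 and between the single females 0.34. Without EC-Jag1KO replicate 1 the difference was 0.29 and its unadjusted p in limma 0.0535.

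Prx (ENSMUSG00000053198, plus strand of chromosome 7, 27499324 to 27520214 in mm10) went the other way. It measured 4.83, 5.22 and 5.18 FPKM in wild-type and 3.73, 4.55 and 3.93 FPKM in EC-Jag1KO libraries, on 444 to 724 reads. The highest EC-Jag1KO value, in replicate 2, was close to the lowest wild-type value. The log2 fold change was -0.26 with an SE of 0.11 and a 95% interval of -0.51 to -0.013. Limma gave an unadjusted p of 0.0418 and an adjusted p of 0.629, and the exact permutation test again gave p = 0.1. The unadjusted p was 0.143 without EC-Jag1KO replicate 1 and 0.137 in males alone (limma), and the log2 difference was -0.23 in males and -0.33 between the females. Exons of Prx overlap the antisense gene Gm15541, which held 0 to 15 reads per library. The summed level of the endothelial list, a cell type that also makes Prx, overlapped between the groups, at 368 to 540 FPKM in wild-type and 413 to 517 FPKM in EC-Jag1KO libraries. Of its 12 genes 2 were at an unadjusted p under 0.05 (16.7%, against 7.71% of all tested genes), both higher in EC-Jag1KO. Groups that did not overlap were found for 0 of the 12, against 13.6% of all tested genes. The part of endothelium in the Prx values was not tested.

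Because a ratio of genes within a library does not depend on library scaling, Scn7a was also divided by Prx, a ratio chosen after the values were seen. The ratio was 0.931, 0.807 and 0.859 in wild-type and 1.62, 1.17 and 1.50 in EC-Jag1KO libraries. The groups did not overlap, which follows from the separation of each gene alone.

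The promoters of these genes are shown because they are the pair whose groups separated, in opposite directions. The sequences are RefSeq windows on GRCm38.p6, from 250 bases before to 50 bases after the annotated start, read 5′ to 3′ on the strand of the gene. Capitals mark matches on either strand to GTGGGNG, the core letters of the motif bound by EGR2, or to ACAANG, the core letters of the motif bound by SOX factors. EGR2 and SOX10 are the regulators of Schwann cell myelination.
Scn7a, chr2:66784861-66785160, minus strand: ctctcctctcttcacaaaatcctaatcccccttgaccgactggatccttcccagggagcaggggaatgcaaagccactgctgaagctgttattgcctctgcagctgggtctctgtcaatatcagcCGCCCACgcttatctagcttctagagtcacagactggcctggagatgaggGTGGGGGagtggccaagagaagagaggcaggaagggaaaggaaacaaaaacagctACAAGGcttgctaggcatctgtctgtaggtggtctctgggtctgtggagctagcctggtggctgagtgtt
Prx, chr7:27499074-27499373, plus strand: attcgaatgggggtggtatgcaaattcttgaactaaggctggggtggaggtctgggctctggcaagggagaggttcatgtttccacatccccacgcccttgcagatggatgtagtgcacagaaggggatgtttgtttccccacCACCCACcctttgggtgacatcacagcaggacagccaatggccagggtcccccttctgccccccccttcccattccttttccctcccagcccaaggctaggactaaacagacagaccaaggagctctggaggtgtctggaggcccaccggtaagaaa
The Scn7a window held 2 matches to GTGGGNG, at positions -125 and -75 from the start site, and 1 match to ACAANG at position -20. The Prx window held 1 match to GTGGGNG at position -107 and 0 to ACAANG, and no matches overlapped in either window. Of 32851 promoter windows of the same length, 31.6% held GTGGGNG and 41.2% held ACAANG, so matches of this kind are common. The S100b window held 1 match to ACAANG at its far end, and the 4 windows of Pmp22 held 0 matches to either motif.

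The remaining myelin genes gave no difference beyond the spread. Pmp22 measured 96.0, 95.7 and 90.7 FPKM in wild-type and 96.0, 101.4 and 101.3 FPKM in EC-Jag1KO libraries, on 3673 to 4783 reads. One EC-Jag1KO library lay at the level of the wild-type libraries and the others slightly above. The log2 fold change was 0.079, and its 95% interval of -0.13 to 0.29 bounds the difference most closely among the 6 genes. Mbp measured 2.72, 2.17 and 3.60 FPKM in wild-type and 3.48, 2.33 and 3.23 FPKM in EC-Jag1KO libraries. Its groups overlapped across nearly their whole range, with a log2 fold change of 0.074 (95% interval -0.35 to 0.50), and the sign turned with the adipocyte covariate (-0.017) and on leaving out wild-type replicate 2 (-0.054) or EC-Jag1KO replicate 1 (-0.011). Among 19 listed myelin structural genes, 11 were tested, and 7 lay higher and 4 lower. Prx was the 1 member at an unadjusted p under 0.05 (9.09% of the 11, against 7.71% of all tested genes). The list's median log2 fold change was 0.012, where that of all tested genes was -0.00022. Of 4 tested genes of myelin lipid synthesis 0 were at an unadjusted p under 0.05. The smallest p there belonged to Aspa, which cleaves N-acetylaspartate, at 1.56 ± 0.56 against 2.09 ± 0.36 FPKM, and the next to Elovl1, a fatty acid elongase gene, at 38.6 ± 3.6 against 37.1 ± 6.0 FPKM (n = 3 each).

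S100b measured 3.65, 1.74 and 3.85 FPKM in wild-type and 4.22, 4.27 and 3.80 FPKM in EC-Jag1KO libraries, on 65 to 147 reads. Wild-type replicate 2 was low, and the other 5 libraries lay between 3.65 and 4.27 FPKM. The log2 fold change of 0.36 had a 95% interval of -0.16 to 0.88, and it was 0.099 without wild-type replicate 2. That library also had the lowest adipocyte marker level. Across the other 5 libraries the adipocyte sum ran from 1567 to 3580 FPKM, over the narrow S100b range given above. The part of adipocytes in the S100b values was not tested. With the adipocyte level as a covariate the S100b difference was 0.21 (limma unadjusted p = 0.153), and it was 0.55 within males and -0.017 between the single females. All 10 tested adipocyte markers of the 12 had positive log2 fold changes, with a median of 0.50, and 0 were at an unadjusted p under 0.05.

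**Figure D2:**
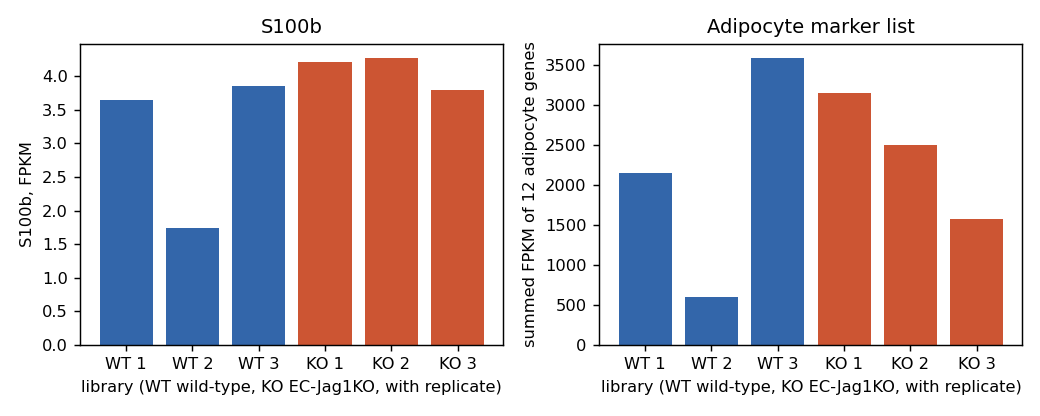
Left, S100b in FPKM, and right, the summed FPKM of 12 adipocyte marker genes, in each of the 6 libraries (1 bar per library, axes from 0). Wild-type replicate 2 has the lowest bar in both panels, at 1.74 and 594 FPKM.

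Sox10 (ENSMUSG00000033006, chromosome 15) measured 0.749, 1.11 and 0.961 FPKM in wild-type and 0.623, 0.890 and 0.754 FPKM in EC-Jag1KO libraries. The groups overlapped, and the log2 fold change in the fit without a filter on low values was -0.14 (95% interval -0.44 to 0.15, limma adjusted p = 0.857). Egr2, which drives myelination together with Sox10, stood at 0.915 ± 0.349 against 0.595 ± 0.242 FPKM, also below the filter. Among 14 transcription factors of the Schwann lineage 7 were tested, 6 lower and 1 higher (all tested genes: 6088 lower, 6077 higher). Sox10 and Egr2 were not among the 7, and 0 of the 7 were at an unadjusted p under 0.05. The smallest p there belonged to Id4, an inhibitor of basic helix-loop-helix factors, at 20.0 ± 7.4 against 12.3 ± 3.0 FPKM. Its log2 difference was -1.14 in males and 0.41 between the females. Nab2, a cofactor of EGR proteins, followed at 8.91 ± 0.81 against 7.44 ± 1.61 FPKM (n = 3 each).

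**Figure D3:**
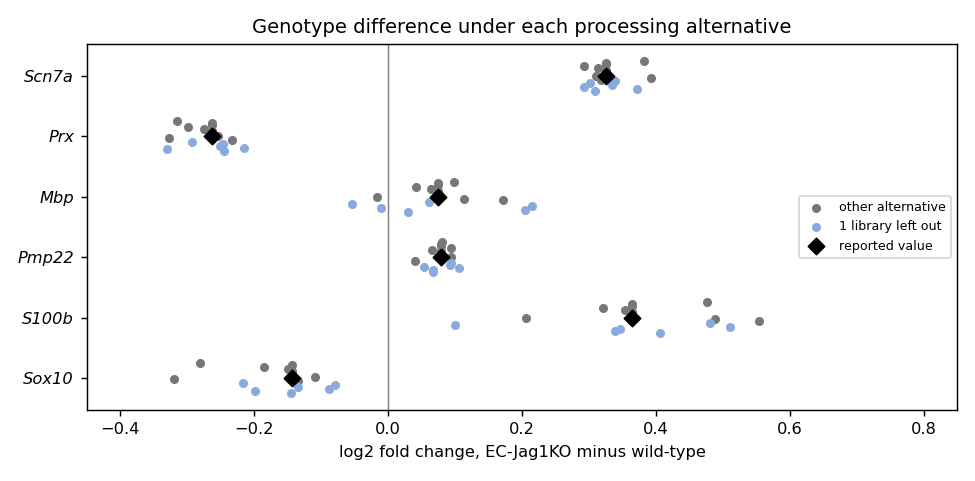
Log2 fold change (EC-Jag1KO minus wild-type, x axis) of the 6 genes as reported (diamonds) and under each alternative way of processing (circles). Scn7a stays between 0.29 and 0.39 and Prx between -0.33 and -0.21, while Mbp crosses 0.

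Non-myelinating and pan-glial Schwann cell genes lay on both sides of 0. Of 24 listed genes 11 were tested, and 5 of these were at an unadjusted p under 0.05 (7.71% of all tested genes were), 2 higher and 3 lower in EC-Jag1KO. Beside Scn7a, Ptprz1, a receptor phosphatase gene also expressed outside nerve, measured 27.1, 25.2 and 20.5 FPKM in wild-type and 29.7, 37.2 and 31.5 FPKM in EC-Jag1KO libraries, a log2 fold change of 0.42. On the lower side, Matn2, which encodes the matrix protein matrilin-2, had 24.3, 21.9 and 25.7 FPKM in wild-type. In EC-Jag1KO libraries Matn2 had 20.5, 8.41 and 10.2 FPKM, a log2 fold change of -0.92. Art3, an ADP-ribosyltransferase family gene, stood at 58.1 ± 8.7 against 38.4 ± 10.2 FPKM. L1cam, an adhesion molecule of axons and Remak Schwann cells, stood at 2.48 ± 0.43 against 1.69 ± 0.27 FPKM and was named after its values were seen. The groups of these 5 genes did not overlap, as for 13.6% of all tested genes, and none passed over all genes (smallest limma adjusted p = 0.508). The median of the list was 0.072. Matn2, Art3 and Ptprz1 stood at wild-type levels of 24.0 to 58.1 FPKM, where Sox10 stood at 0.941 FPKM, and their cell of origin in the wall was not tested.

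Genes for neurotrophic factors made by the vessel wall included the smallest p of the nerve lists. Nrtn encodes neurturin, a ligand of the GDNF family that supports autonomic neurons. It measured 35.3, 40.4 and 27.2 FPKM in wild-type and 15.4, 16.8 and 21.9 FPKM in EC-Jag1KO libraries. The highest EC-Jag1KO value lay below the lowest wild-type value, and the group mean was 0.526 of the wild-type mean. The log2 fold change was -0.89 (SE 0.18, 95% interval -1.31 to -0.46), with an unadjusted p of 0.00152 and an adjusted p of 0.371 in limma. It was -1.18 within males and -0.30 between the females.

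Artn, which encodes artemin, another ligand of the GDNF family, measured 3.21, 2.32 and 3.04 FPKM in wild-type and 2.50, 1.73 and 1.28 FPKM in EC-Jag1KO libraries, and its groups overlapped. Bdnf, the brain-derived neurotrophic factor gene, lay the other way, at 2.13, 2.66 and 2.39 FPKM against 3.40, 3.25 and 3.82 FPKM, with no overlap. The log2 fold changes were -0.46 for Artn and 0.41 for Bdnf, with limma adjusted p-values of 0.635 and 0.498. Ntf3, the neurotrophin-3 gene, was abundant at 32.9 ± 2.1 against 29.8 ± 2.8 FPKM, with overlapping groups. Of 21 listed ligands and receptors of this group 11 were tested, 4 higher and 7 lower. Among these, 4 were at an unadjusted p under 0.05 (7.71% of all tested genes), 1 higher and 3 lower, and the median log2 fold change was -0.14. The summed level of the 21 genes was 136 to 149 FPKM in wild-type and 112 to 127 FPKM in EC-Jag1KO libraries. This sum includes Nrtn, at 27.2 to 40.4 FPKM in wild-type and 15.4 to 21.9 FPKM in EC-Jag1KO libraries. It therefore repeats part of the Nrtn difference. The mean log2(FPKM + 1) of the list overlapped, at 1.61 to 1.71 against 1.59 to 1.62.

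**Figure D4:**
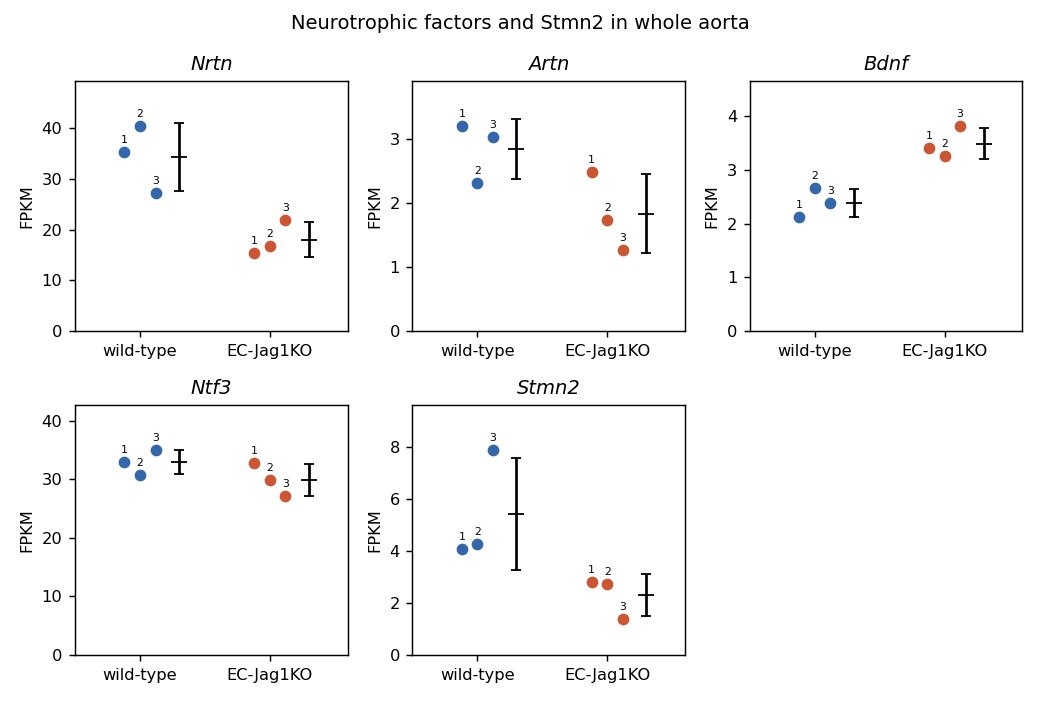
FPKM of 4 neurotrophic factor genes and of Stmn2, from the axon and autonomic neuron list, in each library, with replicate numbers and the mean ± SD (n = 3). EC-Jag1KO points lie below all wild-type points for Nrtn and Stmn2 and above them for Bdnf, while Artn and Ntf3 overlap.

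Of 29 axon and autonomic neuron genes, 4 reached a mean of 1 FPKM, 2 higher and 2 lower in EC-Jag1KO, with a median log2 fold change of -0.066. Uchl1, which encodes a ubiquitin hydrolase abundant in neurons, stood at 40.8 ± 12.9 against 42.4 ± 7.6 FPKM. Rab3a, a synaptic vesicle GTPase gene, stood at 26.7 ± 1.9 against 23.3 ± 4.4 FPKM, and Syp, the synaptophysin gene, at 1.70 ± 0.39 against 1.81 ± 0.10 FPKM (n = 3 each). The groups of these 3 genes overlapped. Th and Dbh, which encode enzymes of noradrenaline synthesis, had 0 reads in all 3 wild-type libraries and in EC-Jag1KO replicates 2 and 3. In EC-Jag1KO replicate 1 they had 4 and 7 reads. Phox2a, an autonomic neuron factor, Calcb, Chat and Slc18a3 had 0 reads in all 6 libraries. Stmn2, a tubulin-binding protein of growing axons, was the 1 gene of the list at an unadjusted p under 0.05 (7.71% of all tested genes were). It measured 4.07, 4.28 and 7.91 FPKM in wild-type and 2.81, 2.75 and 1.38 FPKM in EC-Jag1KO libraries. The groups did not overlap, and the log2 fold change of -0.94 had a limma adjusted p of 0.487. Within males it was -0.45 and between the females -1.91. The cell of origin of Stmn2, Uchl1 and Rab3a in the wall was not tested.

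Of 9 axonal guidance genes 8 were tested, 7 lower and 1 higher (all tested genes: 6088 lower, 6077 higher). Of the 8, 0 were at an unadjusted p under 0.05, and their median was -0.11. Sema3f, a repulsive semaphorin gene, stood at 72.2 ± 10.7 against 59.9 ± 7.7 FPKM. Slit3, a secreted guidance cue gene, stood at 85.0 ± 7.7 against 68.2 ± 21.3 FPKM (n = 3 each), with both groups overlapping.

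**Figure D5:**
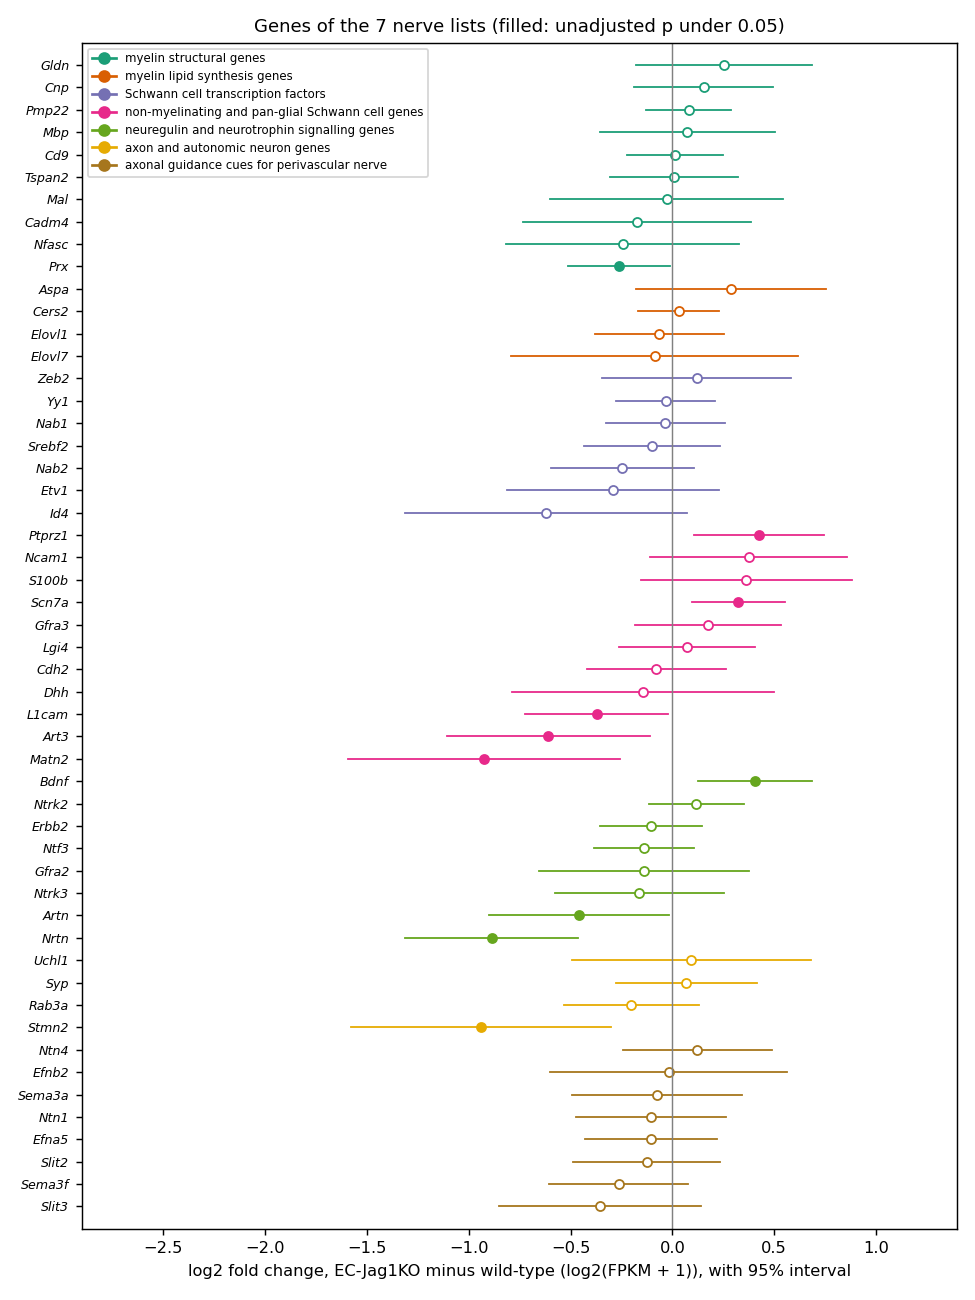
Log2 fold change (x axis, EC-Jag1KO minus wild-type) with its 95% interval for 52 of the 54 tested genes of the 7 nerve lists, coloured by list, with filled points at an unadjusted p under 0.05. Of the 10 filled points 7 lie below 0 and 3 above.

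Across the 7 nerve lists together, 118 genes were listed and 54 tested, 21 higher and 33 lower (all tested genes: 6077 higher, 6088 lower). At an unadjusted p under 0.05 there were 11 (20.4%), where all tested genes gave 7.71%. Groups that did not overlap were found for 10 (18.5%), against 13.6% of all tested genes. The lists were chosen with earlier results of these data known, and 0 of the 54 passed over all genes. Without wild-type replicate 3 the number at an unadjusted p under 0.05 was 7.

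Profiles over the 6 libraries were compared with those of 11110 tested protein-coding genes (11111 for Sox10), leaving out predicted genes, unnamed clones and pseudogenes. The genes nearest to each of the 6 were found by the root mean square difference of centred log2(FPKM + 1) values. For Scn7a these were Lurap1l (0.0231), Slc31a1 (0.0279) and Ddx26b (0.0287). For Prx they were Itga3 (0.0286), Plat (0.0333) and Slc12a4 (0.0354). For Mbp they were L3hypdh, Atg101 and Dagla, at 0.0357 to 0.0432. For Pmp22 they were Maged1, Nucks1 and Arf5, at 0.0203 to 0.0222, and for Sox10 they were Nbn, Spryd3 and Tmem63a, at 0.0278 to 0.0394. S100b had the most distant neighbours, with Rasd1 at 0.0926, Dusp18 at 0.0946 and Sema7a at 0.105. None of these neighbours was on a nerve list. Within a difference of 0.1 there were 255 genes for Scn7a, 393 for Prx, 93 for Mbp, 1729 for Pmp22, 2 for S100b and 553 for Sox10. The counts fell as the root mean square of the gene's own centred profile rose. This was 0.054 for Pmp22, 0.125 for Sox10, 0.152 for Prx, 0.171 for Scn7a, 0.208 for Mbp and 0.324 for S100b. The counts therefore depend on how much each gene itself varied, and shared regulation was not tested.

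Markers of other cells of the tissue were read beside these values, and their counts at an unadjusted p under 0.05 stand against 7.71% of all tested genes. The summed level of 11 perineurial and endoneurial genes was 59.0 to 61.7 FPKM in wild-type and 51.9 to 53.3 FPKM in EC-Jag1KO libraries, with no overlap. The mean log2(FPKM + 1) of this list overlapped, at 1.941 to 2.021 against 1.919 to 2.003. Of the 11 genes 6 were tested, 5 lower and 1 higher, with 0 at an unadjusted p under 0.05. The sum of 10 smooth muscle genes was 14513 to 15248 FPKM against 12235 to 14468 FPKM, also with no overlap. Their mean log2(FPKM + 1) overlapped, at 8.84 to 9.01 against 8.70 to 8.90. Of the 10 genes 4 were at an unadjusted p under 0.05, 3 lower and 1 higher. The groups overlapped for the sums of 10 adventitial fibroblast genes (3008 to 3280 against 3247 to 3673 FPKM; 2 at an unadjusted p under 0.05) and of 12 macrophage and lymphocyte genes (120 to 139 against 134 to 172 FPKM, with 1 of 6 tested). They also overlapped for 12 endothelial genes, of which 2 were at an unadjusted p under 0.05, both higher in EC-Jag1KO. Erythroid genes summed to 741 to 1519 FPKM in wild-type and 190 to 919 FPKM in EC-Jag1KO libraries, and 4 of 5 tested were lower at an unadjusted p under 0.05.

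Melanocyte genes summed to 7.46 to 9.36 FPKM in wild-type and 7.89 to 11.1 FPKM in EC-Jag1KO libraries, and Tyr, Tyrp1 and Slc45a2 had 0 reads in wild-type. Of 3 tested melanocyte genes 1 was at an unadjusted p under 0.05, higher in EC-Jag1KO with no overlap. Oligodendrocyte and chondrocyte genes summed to 2.49 to 7.33 and 3.86 to 4.01 FPKM, with Opalin, Olig2 and Matn1 at 0 reads in wild-type. Mesothelial genes summed to 7.16 to 10.4 and 9.22 to 14.8 FPKM, and skeletal and cardiac muscle genes to 13.8 to 27.2 and 20.2 to 39.1 FPKM. Of 8 tested skeletal and cardiac muscle genes 1 was at an unadjusted p under 0.05, again higher with no overlap. The part of these cell types in the differences of Scn7a, Prx and Nrtn was not tested.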

How the data were processed

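RNA of whole mouse aorta from 3 wild-type and 3 EC-Jag1KO libraries was analysed from 1 table. The authors deposited FPKM values with gene coordinates and lengths per the file headers. Per the submitters' processing notes the tools were STAR, HTSeq and edgeR and the build mm10, without versions. No source used here gives the annotation release or the strand setting. Whole reads were recovered from FPKM and gene length for 211650 of 211650 values, within 0.05 of a whole number. They served to give depth and for 1 alternative. Libraries were not repeats of each other (chi-square per degree of freedom 24.4 to 73.7).

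Values were tested as log2(FPKM + 1), which understates the change of low genes, over the 12165 genes averaging 1 FPKM or more. Limma 3.58.1 in R 4.3.3 fitted genotype alone with an intensity trend. Tests were two-sided, and p-values were adjusted over all tested genes by the Benjamini-Hochberg method, with a threshold of 0.05. Sox10, Egr2 and Erbb3 came from the same fit over 22822 genes without the filter. The fit was checked on simulated data. Exact permutation tests used scipy 1.17.1.

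The genes and 18 lists (229 symbols, 3 matched through an older symbol) were chosen with earlier results of these data known. Named were the 6 genes, Egr2 and Erbb3, in each nerve list up to 4 genes at an unadjusted p under 0.05 or otherwise the 2 of smallest p, and the 3 nearest profiles. Some genes that this rule takes are not reported here by name or drawn, though list counts hold them (54 tested nerve genes, 11 at an unadjusted p under 0.05). Other genes were chosen as examples after their values were seen, and lists of other cell types are given by counts and sums. Alternatives numbered 17. Promoters came from RefSeq for 4 of the 6 genes.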

Additional observations from a re-analysis of the deposited data

How the results depend on the processing

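Scn7a kept its direction under all 17 alternatives, at log2 fold changes of 0.29 to 0.39 and limma adjusted p-values of 0.329 to 0.998, and was at an unadjusted p under 0.05 in 16. Prx kept its direction under all 17, at -0.33 to -0.21, and was at an unadjusted p under 0.05 in 6. Pmp22 and S100b kept theirs under all 17. Sox10 kept its direction under all 16 of its alternatives, since its reported fit was already the one without the filter. Mbp, 0.074 as reported, was -0.017 with the adipocyte covariate, and -0.054 to 0.22 when single libraries were left out, below 0 on leaving out wild-type replicate 2 (-0.054) or EC-Jag1KO replicate 1 (-0.011). Nrtn and Stmn2 were at an unadjusted p under 0.05 under all 17. The number of genes past the adjusted threshold, 0 as reported, was 1 with sex as a covariate, 2 without both female libraries and 0 to 4 with single libraries left out (4 without EC-Jag1KO replicate 1). None of these genes was on a nerve list. The number at an unadjusted p under 0.05 was 938 as reported, 1436 without the filter, where more genes were tested, and 588 to 1437 with single libraries left out. The lowest count came on leaving out EC-Jag1KO replicate 1, and the highest on leaving out EC-Jag1KO replicate 2. Wild-type replicate 2, left out, gave 604. Among nerve list genes it was 11 as reported and 7 to 11 with single libraries left out, 7 without wild-type replicate 3. The cause was not tested. With the replicate number as a block the counts were 0, 842 and 9, and the log2 fold changes of Scn7a and Prx had unadjusted p-values of 0.0267 and 0.0633. Same-numbered libraries deviated together little (correlations of 0.0549, 0.0511 and -0.0496), and no library correlated best with its own number. These correlations do not settle whether the numbers pair the libraries, since the replicate 3 libraries, both female, gave -0.0496 despite their shared sex. Replicates 1 and 2 were male in both groups, so the block also carries sex.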

Other observations

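Several genes of sympathetic innervation and of the response of Schwann cells to injury lay below the filter of 1 FPKM and were picked here after their values were seen. Slc6a2, the noradrenaline transporter gene of sympathetic neurons, measured 0.118, 0.0328 and 0.102 FPKM in wild-type and 0.346, 0.373 and 0.216 FPKM in EC-Jag1KO libraries, on 5 to 46 reads. The groups did not overlap, and in the fit without the filter limma gave an unadjusted p of 0.00527 and an adjusted p of 0.586. Gdnf, the founding ligand of its family, measured 0.0362, 0 and 0.0333 FPKM in wild-type and 0.0651, 0.330 and 0.132 FPKM in EC-Jag1KO libraries, on at most 23 reads. For Gdnf limma gave an unadjusted p of 0.0571 and an adjusted p of 0.798 in the fit without the filter. Ngfr, the low-affinity neurotrophin receptor of immature and repair Schwann cells, had 2 to 19 reads. It stood at 0.0869 ± 0.0622 against 0.207 ± 0.059 FPKM (n = 3 each), with overlapping groups and a limma adjusted p of 0.790. Slc18a2, the vesicular monoamine transporter gene, stood at 0.823 ± 0.125 against 0.882 ± 0.049 FPKM, with overlapping groups. Other genes of the nerve lists lay in both directions. Lower in EC-Jag1KO were Ret, the receptor of GDNF family ligands, at 0.379 ± 0.226 against 0.163 ± 0.055 FPKM, and Gfap, a glial filament gene, at 0.828 ± 0.172 against 0.738 ± 0.413 FPKM. Sox2 was slightly higher, at 0.066 ± 0.049 against 0.078 ± 0.048 FPKM. The groups of Ret, Gfap and Sox2 overlapped.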
